A study of Rattus norvegicus with 10 samples.

Results

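The subunits of the mitochondrial respiratory chain and of ATP synthase were examined in FACS-sorted rat β-cells after knockdown of the transcriptional repressor Scrt1. Genes were chosen by symbol: subunits of complex I (Nduf), complex II (Sdha to Sdhd), complex III (Uqcr and Cyc1), complex IV (Cox4 to Cox8), ATP synthase or complex V (Atp5), and the subunits encoded by mitochondrial DNA (names starting with Mt-). The pattern matched 103 genes, and 92 of them reached a mean scaled count of 10 over the 10 libraries, out of 12964 genes that did so in the whole table. Of the 92, 79 were nuclear genes and 13 were mitochondrial genes. The 11 that fell short were Ndufa1, Ndufs6, Cox6a2, Cox6b2, Cox6c-ps1, Cox7b2, Cox8b, Cox8c, Atp5md and second genes named Ndufa10l1 and Cox6b1, with mean scaled counts from 0 to 8.92.

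The β-cells came from islets of adult Sprague-Dawley rats and were sorted by their autofluorescence. They were transfected with a pool of siRNAs directed against Scrt1 (siScrt1, libraries A to E) or with a negative control siRNA (siCtrl, libraries 1 to 5), and RNA was collected 48 h later. No allele or transgene was involved, and both groups went through the same sort and the same lipid transfection. The labels give 5 libraries per group and do not say whether they came from separate animals or preparations, so p-values measure the spread between these libraries, which may be technical.

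Oxidative phosphorylation passes electrons from NADH and succinate through complexes I to IV to oxygen, pumps protons across the inner mitochondrial membrane and lets them return through ATP synthase. The complexes are built from the products of both genomes, except complex II, whose subunits are all nuclear-encoded. In β-cells ATP made from glucose closes ATP-sensitive potassium channels, which depolarizes the membrane and triggers insulin release, so the chain links glucose metabolism to secretion. The comparison asked whether lowering Scrt1 moved the transcripts of this machinery.

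Scrt1 itself was lower in every siScrt1 library. It stood at 14.6, 11.7, 14.0, 18.2 and 11.9 CPM (reads relative to the library total) in siCtrl 1 to 5 and at 5.55, 4.24, 4.28, 2.24 and 1.57 CPM in siScrt1 A to E. The groups did not overlap, and p was 0.00794 in an exact two-sided permutation test, which can give no smaller value with 5 against 5. In the limma fit used throughout the log2 fold change was -2.06 ± 0.308 (SE), with an adjusted p of 0.00631. Without siCtrl 4 and siScrt1 D it was -1.82, with an adjusted p of 0.0626.

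Depth ran from 11901342 to 17444034 reads per library. The insulin genes took 8.88% to 15.0% of the reads, and the 5 acinar markers (Prss1, Cpa1, Cela1, Amy2a3 and Cpb1) had means of 0.208 CPM or less, highest for Cela1. Of the other islet hormones, Gcg of α-cells had a mean of 363 CPM (206 to 579) and Sst of δ-cells 31.0 CPM (8.86 to 67.1). The listed markers G6pc2 and Pecam1 were not analysed here. The summed level of 6 mesenchymal markers was 16.8 CPM in siCtrl 4 and 30.6 CPM in siScrt1 D against 3.71 to 8.68 CPM in the other 8 libraries.

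The promoters of 3 subunit genes are shown because they carry, or lack, exact matches to motifs that nuclear respiratory genes are known for. They are examples and not typical of the subunit genes. Uqcrc1 and Uqcrc2 encode the paired core proteins of complex III, and Uqcrc2 had the smallest unadjusted p of all 92 genes. Ndufa6 is an accessory subunit of complex I. The sequences are RefSeq promoters of the GRCr8 assembly, 250 bases before to 50 bases after the gene start, read on the gene's strand. Capitals mark matches on either strand to GCATGCGC (NRF1, nuclear respiratory factor 1), AAGATGGCG (YY1) or CAGGTG, the core of the E-box that Scratch-family repressors bind.
Uqcrc1 (chr8:118467973-118468272, plus strand): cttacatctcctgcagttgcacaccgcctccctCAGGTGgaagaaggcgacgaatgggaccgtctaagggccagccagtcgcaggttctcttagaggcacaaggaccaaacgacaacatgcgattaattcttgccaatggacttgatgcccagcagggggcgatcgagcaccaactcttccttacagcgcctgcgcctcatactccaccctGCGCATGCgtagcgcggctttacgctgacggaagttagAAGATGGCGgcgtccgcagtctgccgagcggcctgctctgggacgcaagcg
Uqcrc2 (chr1:184598990-184599289, plus strand): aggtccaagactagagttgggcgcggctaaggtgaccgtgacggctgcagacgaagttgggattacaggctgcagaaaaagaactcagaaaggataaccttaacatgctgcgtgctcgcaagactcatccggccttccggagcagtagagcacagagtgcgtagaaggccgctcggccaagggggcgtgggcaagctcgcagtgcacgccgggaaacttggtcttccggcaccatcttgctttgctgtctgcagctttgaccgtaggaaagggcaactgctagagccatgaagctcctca
Ndufa6 (chr7:115750268-115750567, minus strand): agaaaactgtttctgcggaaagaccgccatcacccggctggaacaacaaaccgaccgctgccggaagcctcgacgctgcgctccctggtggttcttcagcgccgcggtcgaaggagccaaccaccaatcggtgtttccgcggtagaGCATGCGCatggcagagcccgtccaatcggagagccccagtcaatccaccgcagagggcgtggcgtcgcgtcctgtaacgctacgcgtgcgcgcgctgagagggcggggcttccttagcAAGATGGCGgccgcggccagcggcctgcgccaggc
Uqcrc1 held an exact match to all 3 motifs, with the YY1 letters lying across the gene start. Ndufa6 held NRF1 and YY1, and Uqcrc2 held no exact match. Near matches were not searched.

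Promoters were found for 67 of the 79 nuclear genes, all by symbol, and made up 66 distinct sequences. The NRF1 letters were in 8 of the 66 (12.1%) and in 2.66% of all 27457 promoters of the table. CCGGAAGT, the site of ETS factors such as GABPA, was in 8 (12.1%) and in 4.01% of all, and the YY1 letters were in 9 (13.6%) and in 1.93% of all. Among the 19005 promoters of protein-coding genes the shares were higher, 3.23% for NRF1, 4.99% for ETS and 2.29% for YY1. At least 1 of the NRF1, ETS and YY1 letters was in 23 of the 66. No promoter other than those of Uqcrc1 and Ndufa6 held both NRF1 and YY1. The longer Scratch E-box CAACAGGTG was in 0 of the 66 and in 0.22% of all promoters, while its core CAGGTG, which it contains, was in 10 (15.2%) against 18.7% of all. A match is a description of the letters in this window and not a measured binding site.

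Transcript levels are given as TPM, which is relative to length, averaged over the 10 libraries. The mitochondrial genes were the most abundant members, with a median of 5081 TPM. Mt-co1, the catalytic subunit of complex IV, stood highest at 20698 TPM, followed by Mt-co3 at 11862 TPM and Mt-cyb, the complex III cytochrome b, at 8629 TPM. The complex I subunits Mt-nd1 to Mt-nd6 lay between 2202 and 6826 TPM. Mt-atp8 was lowest at 264 TPM, a value that rests on an effective length of 18.2 bases for a transcript of 204 bases.

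**Figure D1:**
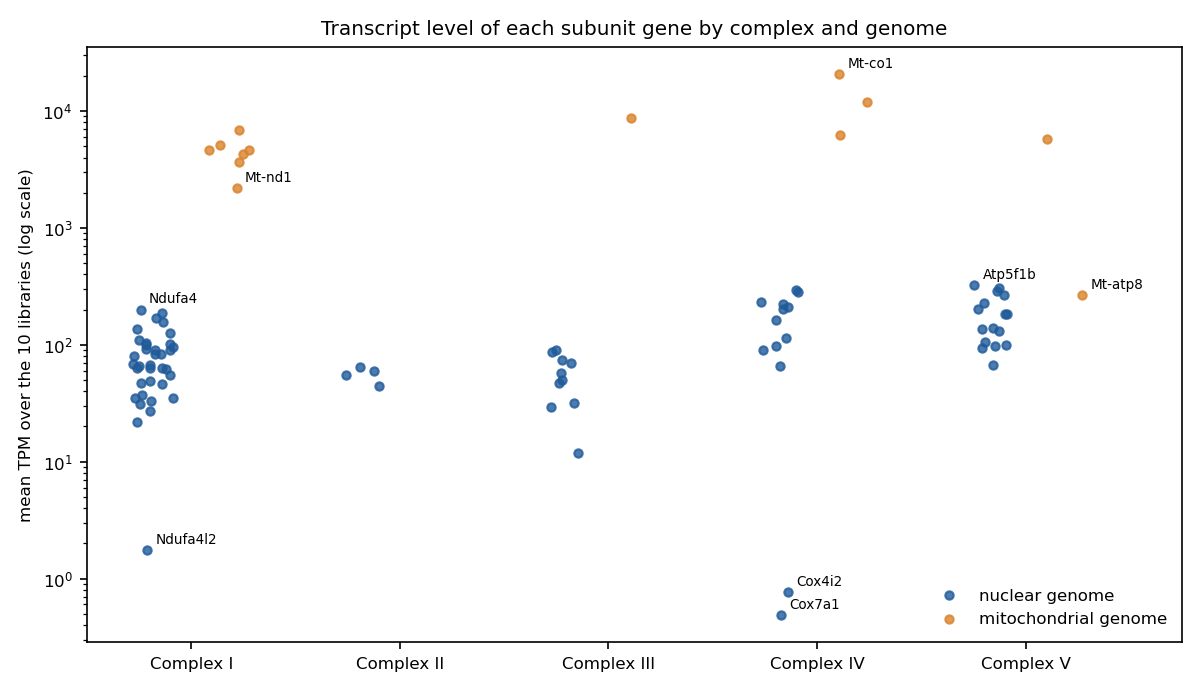
Mean TPM over the 10 libraries (vertical axis, log scale) of each of the 92 subunit genes by complex (horizontal axis), blue for nuclear and orange for mitochondrial genes. The mitochondrial genes other than Mt-atp8 (264 TPM) lie at 2202 TPM or more, above every nuclear gene, of which Atp5f1b is highest at 322.6 TPM.

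The median nuclear gene had 89.3 TPM. The medians by complex were 161 TPM for ATP synthase (16 genes), 164 TPM for complex IV (13 genes), 67.7 TPM for complex I (36 genes), 57.8 TPM for complex II (4 genes) and 53.7 TPM for complex III (10 genes). Atp5f1b, the catalytic β subunit of ATP synthase, was the highest nuclear gene at 322.6 TPM, and its α partner Atp5f1a had 229 TPM. The highest nuclear genes of the other complexes were Cox8a at 294 TPM, Uqcr11 at 89.3 TPM and Sdhc, a membrane anchor of complex II, at 64.4 TPM. Among the Nduf genes Ndufa4 stood highest at 199 TPM. Ndufa4 and its homologue Ndufa4l2 are counted with complex I here by their symbols, although the Ndufa4 protein is known as a subunit of complex IV. Of the other Nduf genes Ndufv3 (ENSRNOG00000001182), a small flavoprotein subunit, was highest at 186 TPM.

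Complex IV and a few other subunits exist as pairs of isoforms made in different tissues, and in each such pair 1 form was almost alone in these cells. Cox4i1 had 223 TPM and its hypoxia-associated counterpart Cox4i2 0.768 TPM. Cox6a1 had 211 TPM and the heart and muscle form Cox6a2 2.01 TPM, while Cox7a2 had 115 TPM and the muscle form Cox7a1 0.484 TPM. Cox8b, Cox8c, Cox6b2 and Cox7b2 had 0.0487 TPM or less. Ndufa4 had 199 TPM and Ndufa4l2 1.74 TPM. The 3 genes for the c subunit of the ATP synthase ring were all expressed, Atp5mc1 at 266 TPM, Atp5mc2 at 140 TPM and Atp5mc3 at 132 TPM.

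Cox4i2 was uneven between libraries. It had 45, 1, 1, 0 and 15 reads in siCtrl 1 to 5 and 15, 2, 4, 0 and 14 reads in siScrt1 A to E. The 4 libraries with 14 or more reads carried the numbers 1 and 5 in both groups in the deposited table, in which A to E are 1 to 5. The ranges of the groups overlapped.

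Knockdown of Scrt1 was accompanied by no called change in any subunit gene. With limma, 0 of the 92 genes had an adjusted p below 0.05, where 1.04% of all genes tested did (135 of 12964). Only 2 genes reached an unadjusted p below 0.05, against 11.0% of all genes, and limma-voom on recovered reads likewise called 0 and placed 2 below 0.05 unadjusted. With the library number of the table as a block, 1.96% of all genes were called (254) and again 0 of the 92, the lowest adjusted p being 0.173. No subunit gene had groups that did not overlap, against 3.5% of all genes.

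The 95% intervals, each for a single gene and unadjusted for their number, show how large a change the group-only fit leaves possible. For 75 of the 79 nuclear genes the 95% interval of the change lay within 1.5-fold in both directions. The exceptions were Ndufa4l2, Cox4i2 and Cox7a1, whose mean scaled counts were 20.9, 10.6 and 10.1, and the second gene named Ndufv3 (ENSRNOG00000027593), whose interval ran from -0.67 to 0.43. For the mitochondrial genes the interval lay within 1.5-fold for 6 of 13 and within 2-fold for all 13. These intervals come from the fit without the block. With the block the median SE of the mitochondrial genes was 0.121, against 0.244 without it.

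**Figure D2:**
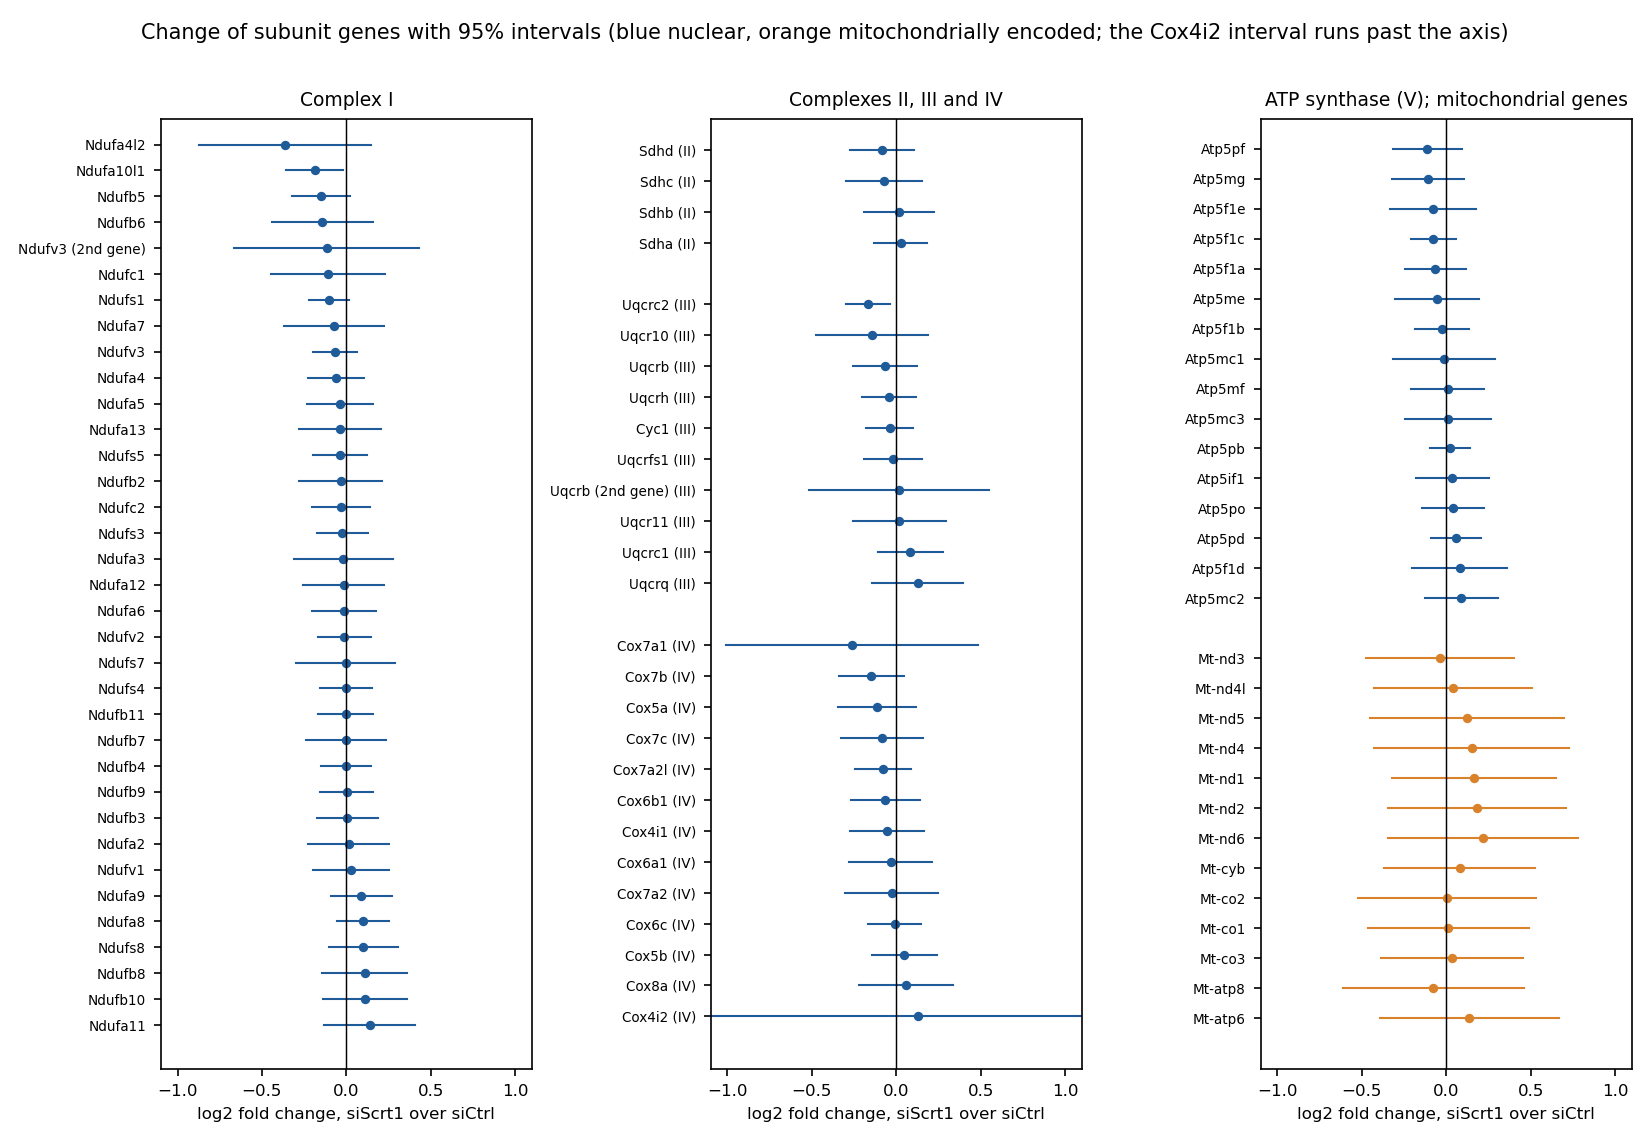
Log2 fold change of siScrt1 over siCtrl (horizontal axis) with its 95% interval from limma for the subunit genes, grouped by complex, blue for nuclear and orange for mitochondrial genes. Points lie between -0.37 (Ndufa4l2) and 0.22 (Mt-nd6), the Cox4i2 interval (-2.72 to 2.98) runs past the axis, and the mitochondrial genes have wider intervals than most nuclear genes.

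The median log2 fold change of the 79 nuclear genes was -0.018, beside 0.0033 for all genes tested, and 51 of the 79 were below 0, where 49.1% of all genes were. By complex the median was -0.016 for complex I, -0.028 for complex II, -0.028 for complex III, -0.055 for complex IV and -0.0026 for ATP synthase. The sign of the nuclear median rested on siCtrl 3: without that library it was 0.033, beside 0.00529 for all genes, and 25 of 79 genes were below 0. With libraries scaled to the total without the 20 most abundant genes the nuclear median was 0.0011 (39 of 79 below 0), and with scaling to the total without the mitochondrial genes it was -0.050 (63 of 79), but the medians of all genes moved alike, to 0.0224 and -0.0282. Relative to all genes the nuclear median was -0.0213 and -0.0215 under these scalings, against -0.0213 before. Dividing each library by a single factor shifts all genes nearly alike, so this difference could not have moved far and tests nothing.

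Complex I, the NADH dehydrogenase, had 36 nuclear genes tested. Ndufa10l1, a homologue of an accessory subunit, had scaled counts of 819, 869, 903, 767 and 792 in siCtrl and 702, 827, 767, 719 and 633 in siScrt1. The ranges overlapped, and its log2 fold change of -0.19 (interval -0.36 to -0.018) had an unadjusted p of 0.0325 and an adjusted p of 0.380 (limma). Ndufs1, the large iron-sulphur subunit, had 2099 ± 95.8 in siCtrl and 1957 ± 72.5 in siScrt1 (mean ± SD, n = 5), and its log2 fold change was -0.10 (-0.22 to 0.018). Ndufb5, an accessory subunit of the membrane arm, had a log2 fold change of -0.15 (-0.32 to 0.021). The core subunits Ndufs3, Ndufs7, Ndufs8, Ndufv1 and Ndufv2, which bind flavin or iron-sulphur clusters or line the quinone site, had log2 fold changes between -0.024 and 0.10, with adjusted p of 0.745 or more. Ndufs6 was listed at 0 in all libraries and Ndufa1 had a mean scaled count of 7.74, so neither was tested.

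Complex II oxidizes succinate and is shared with the citric acid cycle. Its flavoprotein Sdha had scaled counts of 2006, 1823, 2262, 2019 and 1867 in siCtrl and 1925, 2144, 2200, 2031 and 1847 in siScrt1, ranges that nearly coincided. The log2 fold change of Sdha was 0.025 (interval -0.13 to 0.18). The iron-sulphur subunit Sdhb was at 0.016 (-0.19 to 0.22), and the membrane anchors Sdhc and Sdhd were at -0.071 (-0.30 to 0.15) and -0.082 (-0.27 to 0.11).

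Complex III passes electrons from ubiquinol to cytochrome c. Uqcrc2 had scaled counts of 1455, 1686, 1684, 1592 and 1533 in siCtrl and 1329, 1408, 1422, 1465 and 1455 in siScrt1. In siScrt1, 3 of 5 values were below the lowest siCtrl value and the other 2 were at or just above it, so the groups overlapped at their edges. The log2 fold change was -0.17 (interval -0.30 to -0.037), with an unadjusted p of 0.0160 and an adjusted p of 0.290 (limma), and it does not count as a change.

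Its partner Uqcrc1 had a log2 fold change of the other sign, 0.081 (interval -0.11 to 0.27). The Rieske protein Uqcrfs1 was at -0.018 (-0.19 to 0.15) and Cyc1, cytochrome c1, at -0.039 (-0.18 to 0.10). The small subunits Uqcr10 and Uqcrq were at -0.14 (-0.48 to 0.19) and 0.13 (-0.14 to 0.40).

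Complex IV reduces oxygen. The regulatory subunit Cox4i1 had 1952 ± 306 scaled counts in siCtrl and 1870 ± 188 in siScrt1 (mean ± SD, n = 5), and a log2 fold change of -0.055 (interval -0.28 to 0.17). Cox7b and Cox5a were at -0.15 (-0.34 to 0.045) and -0.11 (-0.35 to 0.12), Cox5b at 0.048 (-0.15 to 0.24) and Cox8a at 0.056 (-0.22 to 0.33). Cox7a2l, a factor in joining complexes III and IV into supercomplexes, was at -0.080 (-0.25 to 0.087). The lowest adjusted p among the 13 nuclear genes of complex IV was 0.580.

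ATP synthase makes ATP from the proton gradient. All 16 nuclear genes, which by symbol include the inhibitor Atp5if1, had intervals within 1.5-fold. Atp5f1b had scaled counts of 7738, 7936, 9668, 8104 and 7852 in siCtrl and 7477, 8323, 8219, 8397 and 8062 in siScrt1. siCtrl 3 stood alone at the top, the other 9 libraries were close, and the log2 fold change was -0.025 (interval -0.18 to 0.13). Atp5f1a was at -0.065 (-0.25 to 0.11) and Atp5f1c, the central stalk, at -0.077 (-0.21 to 0.055). The peripheral stalk subunit Atp5pf and the membrane subunit Atp5mg had the next smallest unadjusted p, with log2 fold changes of -0.11 (-0.32 to 0.093) and -0.11 (-0.32 to 0.10).

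Single transcripts gave the same picture as genes in the count of calls. Of 100 subunit transcripts tested 0 were called, where 0.456% of 16441 transcripts were, and 3 had an unadjusted p below 0.05. They were the transcripts of Uqcrc2 and Ndufa10l1 and 1 of Ndufa12 (ENSRNOT00000010117.5), which had 177 ± 59.5 scaled counts in siCtrl and 107 ± 67.5 in siScrt1 (mean ± SD, n = 5; limma adjusted p = 0.496).

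The 13 mitochondrial genes are transcribed together from both strands of mitochondrial DNA and then cut into single RNAs. They took 6.07%, 7.87%, 8.98%, 6.20% and 10.1% of the reads in siCtrl 1 to 5 and 6.55%, 10.3%, 8.41%, 6.12% and 8.66% in siScrt1 A to E. The ranges of the groups nearly coincided, and the range within each group was wide. The 79 nuclear genes took 0.485% to 0.601% of the reads in siCtrl and 0.477% to 0.559% in siScrt1, and the ratio of mitochondrial to nuclear subunit counts ran from 10.9 in siScrt1 D to 18.9 in siScrt1 B.

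The median log2 fold change of the mitochondrial genes was 0.080, and 2 of 13 (Mt-nd3 and Mt-atp8) were below 0. No gene was called, none had an unadjusted p below 0.05, and the lowest adjusted p was 0.803 for Mt-nd6 (limma). The median was -0.040 without siScrt1 B, with 8 of 13 below 0, and 0.197 without siScrt1 D, so single libraries set its sign and size. Leaving out siCtrl 4 or siCtrl 1 brought it to 0.00097 or 0.0035.

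Mt-nd6, the complex I subunit encoded on the strand opposite to the others, had scaled counts of 18718, 18116, 24876, 17792 and 43263 in siCtrl and 20480, 32618, 30200, 18145 and 37624 in siScrt1. siCtrl 5 and siScrt1 E were the highest of their groups, and the log2 fold change was 0.22 (interval -0.34 to 0.78). The strand setting of the library kit is not given in the sources used here, so reads of Mt-nd6 and of RNA from the opposite strand cannot be told apart. Mt-co1 had 361573, 413510, 571385, 373417 and 520475 in siCtrl and 384444, 546305, 479873, 368305 and 468263 in siScrt1. Its groups overlapped over nearly their whole range, and its log2 fold change was 0.013 (-0.47 to 0.49).

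The other mitochondrial complex I genes had log2 fold changes of 0.16 (Mt-nd1), 0.18 (Mt-nd2), -0.038 (Mt-nd3), 0.15 (Mt-nd4), 0.038 (Mt-nd4l) and 0.12 (Mt-nd5). Mt-cyb was at 0.080, the complex IV genes Mt-co2 and Mt-co3 at 0.0025 and 0.032, and the ATP synthase genes Mt-atp6 and Mt-atp8 at 0.14 and -0.078. Mt-atp6 and Mt-atp8 overlap on the mitochondrial genome, as do Mt-nd4 and Mt-nd4l, so the sharing of reads between them is uncertain.

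The spread of the mitochondrial genes within groups was wider than that of the nuclear genes. The median within-group SD was 0.453 on the log2 scale, against 0.163 for the nuclear subunits and 0.179 for all genes. With the table number as a block the median SE of the mitochondrial genes went from 0.244 to 0.121 and that of the nuclear genes from 0.095 to 0.081.

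By rank within their group, libraries of number 4 were alike in these genes and those of numbers 2 and 3 were not. In level number 3 was close, with 8.98% of reads from these genes in siCtrl 3 and 8.41% in siScrt1 C. siScrt1 D was the lowest siScrt1 library for 13 of 13 mitochondrial genes and siCtrl 4, which has the same number, the lowest siCtrl library for 10 of 13. These were also the libraries with the most mesenchymal marker counts, and the part of that in the low values was not tested. Without them the median change of the mitochondrial genes was 0.118. siScrt1 B was the highest siScrt1 library for 9 of 13 genes and siCtrl 2 the highest siCtrl library for 0, while siCtrl 3 was the highest siCtrl library for 6 and siScrt1 C the highest siScrt1 library for 0. Within numbers 1 to 5 the median siScrt1 minus siCtrl difference of the mitochondrial genes was 0.20, 0.61, -0.11, -0.023 and -0.15 on the log2 scale, positive in 2 and negative in 3. Number 2 thus differed most in level and number 4 least.

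**Figure D3:**
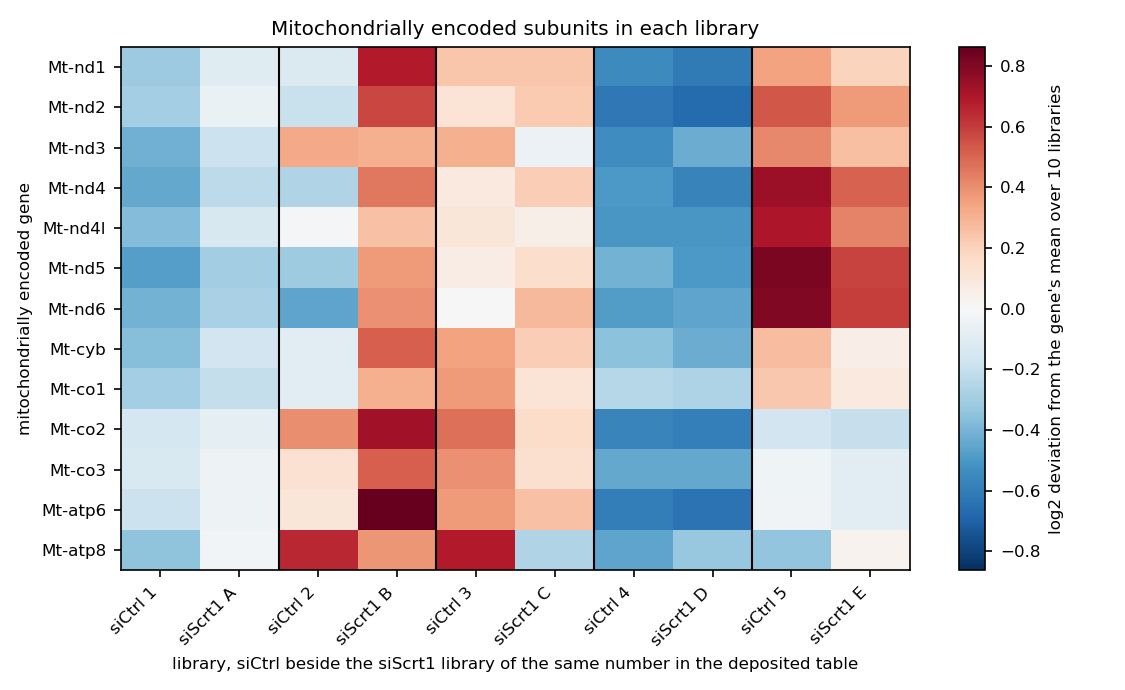
Log2 deviation of each mitochondrial gene (rows) from its mean over the 10 libraries, with each siCtrl library beside the siScrt1 library of the same number in the deposited table (columns). Columns siCtrl 4 and siScrt1 D are low throughout, siCtrl 5 and siScrt1 E are high in Mt-nd4, Mt-nd5 and Mt-nd6 and not in Mt-co2, and siScrt1 B is above the mean in 13 of 13 genes.

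The make-up of the mitochondrial RNA was set apart in number 5 of both groups. The 7 complex I genes made up 38.8% of the mitochondrial subunit counts in siCtrl 5 and 37.6% in siScrt1 E, against 26.7% to 31.3% in the other 8 libraries. The 3 complex IV genes made up 47.3% and 48.6% in these libraries, against 51.8% to 57.6% in the others.

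The nuclear subunits varied together between libraries, and siCtrl 3 stood above the rest. It was the highest of the 10 libraries for 57 of 79 nuclear subunit genes (72.2%), where it was the highest for 14.5% of all genes tested. The median deviation of the nuclear subunits from their means was 0.257 in siCtrl 3 on the log2 scale and lay between -0.094 and 0.070 in the other 9. siCtrl 3 was also the highest library for 35 of 72 cytosolic ribosomal protein genes (48.6%) and for 24 of 74 mitochondrial ribosomal protein genes (32.4%).

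**Figure D4:**
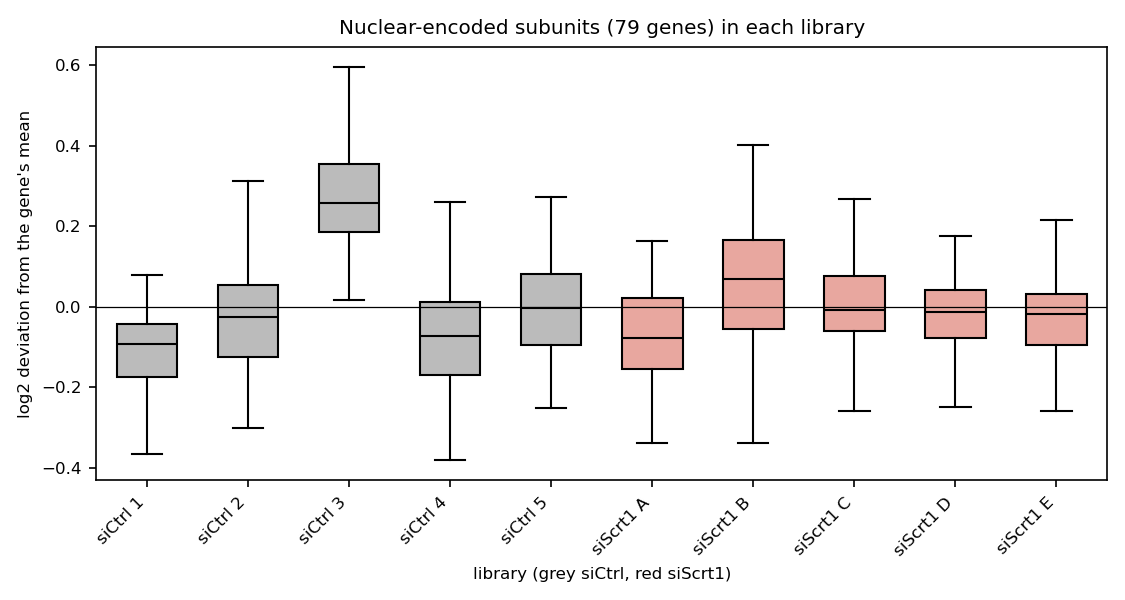
Log2 deviation of the 79 nuclear subunit genes from their means over the 10 libraries (vertical axis) in each library (grey siCtrl, red siScrt1). Boxes span the quartiles with the median as a line, whiskers reach the farthest value within 1.5 box lengths, and values beyond are not drawn. The siCtrl 3 median of 0.257 lies above those of the other libraries (-0.094 to 0.070).

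Gene length moved with this library. Among all genes that are not subunits, the median deviation in siCtrl 3 was 0.162 for transcripts of up to 600 bases and -0.110 for those over 5000 bases, and in siScrt1 B it was 0.048 and -0.056. The nuclear subunit transcripts are short, and 32 of the 79 are in the shortest class. Their median deviation in siCtrl 3 was 0.307 in that class. After each library was centred within bins of gene length, a step added after seeing the data, the siCtrl 3 deviation of the nuclear subunits was 0.146, the median change -0.011, and 0 genes were called.

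**Figure D5:**
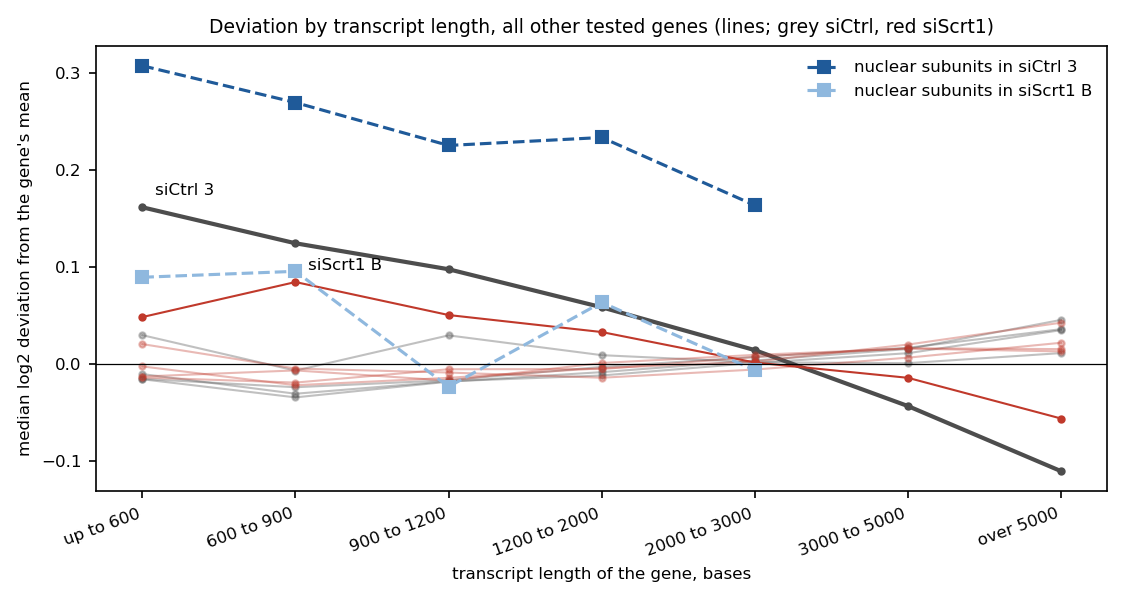
Median log2 deviation from the gene's mean (vertical axis) by transcript length (horizontal axis) for all tested genes that are not subunits, 1 line per library (grey siCtrl, red siScrt1), with the nuclear subunits of siCtrl 3 and siScrt1 B as squares. The siCtrl 3 line falls from 0.162 to -0.110, and the siCtrl 3 squares lie above it in each of the 5 length classes.

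The genes that build and feed the chain were taken from fixed lists, and 0 genes were called in any of them. Of 54 assembly factors 50 were tested, 4 (8%, against 11.0% of all genes) had an unadjusted p below 0.05, and the median log2 fold change was -0.10 with 38 of 50 (76%, against 49.1% of all genes) below 0. The 4, none of which counts as a change, were Ndufaf4, a complex I assembly factor, at -0.32 (interval -0.53 to -0.11; limma adjusted p = 0.200), Atpaf1, an ATP synthase chaperone, at -0.22 (-0.38 to -0.054), Lrpprc, which stabilizes mitochondrial mRNA, at -0.20 (-0.35 to -0.058), and Cox15, of heme A synthesis, at -0.16 (-0.32 to -0.0061). siCtrl 2 and siCtrl 3 were each the highest library for 14 of the 50 factors (28%), against 17.6% and 14.5% of all genes. How far the median rests on single libraries was not tested. Lrpprc was also in the list of mitochondrial transcription and biogenesis.

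That list had 27 of 27 genes tested, 4 with an unadjusted p below 0.05 (14.8%, against 11.0% of all genes), 20 below 0 (74.1%, against 49.1%) and a median of -0.077. Besides Lrpprc the 4, again none of them a called change, were Trmt10c, of mitochondrial tRNA processing, at -0.29 (interval -0.53 to -0.046), the coactivator Ppargc1a at -0.28 (-0.54 to -0.030) and Mterf1 at -0.19 (-0.39 to -0.0035), with limma adjusted p of 0.336 to 0.442. In this list siCtrl 2 was the highest library for 10 of 27 genes (37.0%, against 17.6% of all genes), and the weight of single libraries was not tested. The factors whose motifs were searched, Nrf1 and Gabpa, were at 0.057 (-0.18 to 0.29) and -0.031 (-0.20 to 0.14). Tfam, which packages mitochondrial DNA and takes part in its transcription, was at -0.098 (-0.25 to 0.056).

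Of 15 carriers and inhibitors 14 were tested under the names listed, 0 had an unadjusted p below 0.05 and the median was -0.019. The other, Atpif1, is an older name of Atp5if1, which was tested among the ATP synthase genes. Cytochrome c (Cycs) was at 0.13 (interval -0.36 to 0.62), the ADP/ATP carriers Slc25a4 and Slc25a5 at 0.14 (-0.069 to 0.36) and -0.027 (-0.22 to 0.16), and the uncoupling protein Ucp2 at 0.18 (-0.14 to 0.50). The medians were -0.026 for 74 mitochondrial ribosomal protein genes and -0.025 for 72 cytosolic ones.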

How the data were processed

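RNA-seq libraries of sorted rat β-cells (5 siCtrl, 5 siScrt1) were grouped by the genotype label. The authors quantified single-end reads against the Rnor6 transcriptome with kallisto and scaled the values in Sleuth (versions are not given in the sources used here). The deposited signal per transcript is an estimated count, here called scaled count, and a TPM. Both had been scaled between libraries, so the count test was replaced by limma. Recovered reads are the scaled counts divided by the value of 1 read in each library, and CPM is relative to their total. The other deposited columns hold transcript lengths, effective lengths and replicate numbers, and 9363 annotation rows without values were left out.

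Scaled counts were summed per Ensembl gene, kept at a mean of 10 or more, and log2(value + 0.5) was fitted in R 4.3.3 by limma 3.58.1 (trend, group only). Fold changes on this scale understate those of low genes. Adjusted p-values are Benjamini-Hochberg over all 12964 genes, or over 16441 transcripts, with a threshold of 0.05. Intervals are 95% limma intervals. The fit was tested on simulated data. Single values per library were compared with exact permutation tests. Promoters are those of RefSeq (GRCr8). Figures were drawn with matplotlib 3.10.9.

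The deposited table numbers the libraries 1 to 5 in both groups. Deviations from the group means correlated at 0.120 to 0.369 in the 5 same-numbered pairs, and at most 0.143 in other pairs, so the numbers were taken to pair the libraries and a fit with that block was added. Alternatives were other pseudocounts, filters, scalings, TPM, limma-voom, and leaving out libraries.

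Members, lists and tests were chosen with earlier results of these data known. Genes named were the mitochondrial members, in each complex the 3 nuclear members with the smallest unadjusted p and the highest TPM, core subunits and isoform sets. Other members are given in counts and ranges, and 1 result within this rule is not reported here. Genes of the other lists, where none was called, and Cox4i2 reads were described after their values were seen. Symbols shared by 2 genes (Ndufv3, Uqcrb, Cox6b1, Ndufa10l1) and copies of mitochondrial genes in the nuclear genome can split reads.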

Additional observations from a re-analysis of the deposited data

Results flagged for a closer look

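In 61 measures, each looked at in both groups of 5 libraries, 12 single values stood apart from the other 4 of their group. Several of the 12 came from the same library. Chance alone flags about 1 in 20 groups, and members that vary together are not independent. siCtrl 3 accounted for 7 of the 12, each time as the highest library: its scaled counts were 360.0 for Ndufs8 (next 279.4), 825.9 for Sdhb (670.5), 359.1 for Uqcr10 (250.1), 603.1 for Uqcr11 (432.9), 919.9 for Cox5b (730.1), 1842 for Cox8a (1347) and 9668 for Atp5f1b (8104).

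siCtrl 5 stood apart in the mitochondrial genes. Its Mt-nd6 scaled count was 43260 (next 24880), the share of complex I genes among its mitochondrial subunit counts was 38.8% (next 28.5%), and the share of complex IV genes was 47.3% (next 56.2%). In siScrt1, library B had 546.2 scaled counts of Uqcr11 (next 432.0) and library A had 689.1 of Cox6b1 (next 606.3).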

How the results depend on the processing

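No subunit gene, nuclear or mitochondrial, and no subunit transcript was called under any of the 28 alternatives run for genes or those run for transcripts. The count of all genes called, 135, was 254 with the replicate block, and with the block it was 255 with scaling to the total without the 20 most abundant genes, 250 with median-ratio scaling and 275 with the length-bin adjustment. It ran from 62 (without siScrt1 D) to 134 when single libraries were left out, and was 81 without siCtrl 4, 74 without siCtrl 5, 84 without siScrt1 B, 87 without siScrt1 C and 66 without siScrt1 E. Without siCtrl 4 and siScrt1 D it was 25, and Scrt1 was at -1.82 with an adjusted p of 0.0626, its only lost call. The block changed the call of neither Scrt1 nor any subunit gene. Fits that leave out libraries also have fewer of them, and the cause of these moves was not tested.

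Leaving out single libraries moved the nuclear median from -0.065 to 0.033 and the mitochondrial median from -0.040 to 0.197, each by less than 1 SD of the libraries' own medians. Of 1510 values of 54 named subunit genes under the alternatives, 107 had the opposite sign and 0 were called. Fits of 2 library pairs, the 20-gene scaling, the length-bin adjustment and the block combinations were chosen after seeing the data. DESeq2 and edgeR were not run because the values were scaled. The group-only fit limits the mitochondrial genes most, with a median SE of 0.244 on the log2 scale, against 0.121 with the replicate block.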
